A study of Mus musculus with 6 samples.

Results

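The genes described here encode the NF-kB transcription factor subunits, inhibitors that hold them back and related regulators, 10 of the 34745 genes in the expression table. They were picked by symbol for their roles in the pathway and comprise the 5 Rel-family subunits (Nfkb1, Nfkb2, Rel, Rela and Relb), the cytoplasmic IkB inhibitors Nfkbia, Nfkbib and Nfkbie, the nuclear IkB protein Bcl3, and the IKK-related kinase Ikbke. RNA was sequenced from primary fibroblasts grown out of the kidneys of wild-type (WT) mice, cells that produce the matrix of the kidney. There were 3 libraries of fibroblasts cultured alone with no treatment, called lone fibroblasts here, and 3 of fibroblasts that shared their medium for 24 h with Th17 cells, helper T cells that make interleukin-17, held above them in an insert with 0.4 µm pores. Only the fibroblasts were collected. The Th17 cells had been induced from CD4+ T cells with antibodies to CD3 and CD28 and with IL-1β, IL-6, IL-23 and an antibody to IFN-γ. Whether the lone wells held an empty insert or matched medium was not stated, nor was it stated if replicate libraries derive from separate cultures or mice, so SDs and p-values describe the spread between these libraries only.

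NF-kB proteins bind DNA as dimers. In resting cells IkB proteins hold them in the cytoplasm, and receptors for tumour necrosis factor, interleukin-1, interleukin-17 and microbial products activate the IKK complex, which marks IkB for destruction and releases the dimers into the nucleus. Several of the genes so induced encode inhibitors or subunits of the pathway itself, and in fibroblasts NF-kB drives chemokines, adhesion molecules and matrix-degrading enzymes. Transcript counts report the amount of RNA of each component and do not measure protein, its location or its binding to DNA.

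The libraries held between 12050529 and 13209581 fragment counts, and a floor of 3 counts was worth between 0.223 and 0.254 CPM (counts scaled to a common library total, with TMM factors that correct for differences in library composition). Cocultured replicate 3 stood apart from the other cocultured libraries, with a chi-square statistic per gene of 15.2 and 14.0 against 8.50 between replicates 1 and 2, so values without it are given for each gene or list described below whose calls it changes. All 12 fibroblast markers were detected, with a summed level of 48854 to 50968 CPM in lone and 24787 to 28270 CPM in cocultured fibroblasts, of which 9 fell and 1, Dcn, rose with Th17 cells. Of 15 macrophage markers 7 passed the filter on low counts and all 7 fell, 4 of them (Ptprc, Adgre1, Aif1 and Laptm5) having passed it through the lone libraries alone, with under 10 counts in each cocultured library. Their summed level over all 15 was 51.8 to 55.7 CPM in lone and 8.91 to 10.8 CPM in cocultured fibroblasts. The defining markers Ptprc and Adgre1 were at 0 counts in each cocultured library and at 11 to 14 and 47 to 71 counts in the lone libraries. Of 15 T cell markers 2 passed the filter, Il17a, Il17f and Cd3d were at 0 counts in all 6 libraries, and the summed level was 6.21 to 8.70 CPM in lone and 4.80 to 5.58 CPM in cocultured fibroblasts. The part that macrophage RNA in the lone cultures has in the results below was not tested.

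To ask which components of the NF-kB system differed in transcript level when Th17 cells were present, each gene was compared between the groups with the quasi-likelihood test of edgeR, and p-values were adjusted by the Benjamini-Hochberg method over the 13088 genes that passed the filter on low counts. All 10 NF-kB genes passed that filter, with at least 207 counts in every library. At an adjusted p below 0.05, Nfkb1, Nfkb2 and Nfkbib were higher and Nfkbia and Bcl3 were lower with Th17 cells, 5 genes against 37.1% of all genes tested (17.1% higher and 20.0% lower). When a fold change above 2 was also required, none of the 10 genes was called, against 11.6% of all genes tested (3.87% higher and 7.78% lower). Nfkb1 lay just under that limit. Lone and cocultured CPM were fully separated for the same 5 genes, as they were for 50.4% of all genes tested (24.3% higher and 26.1% lower with Th17 cells). The median log2 fold change of the 10 genes was 0.07, beside 0.00 over all genes tested, and the range was from −0.78 for Bcl3 to 0.996 for Nfkb1. With library size as the only scaling, which moved the median of all genes by 0.06 on the log2 scale, 4 of the genes were higher and 1 lower, and limma on log2(FPKM + 1) gave 3 higher and 1 lower.

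**Figure D1:**
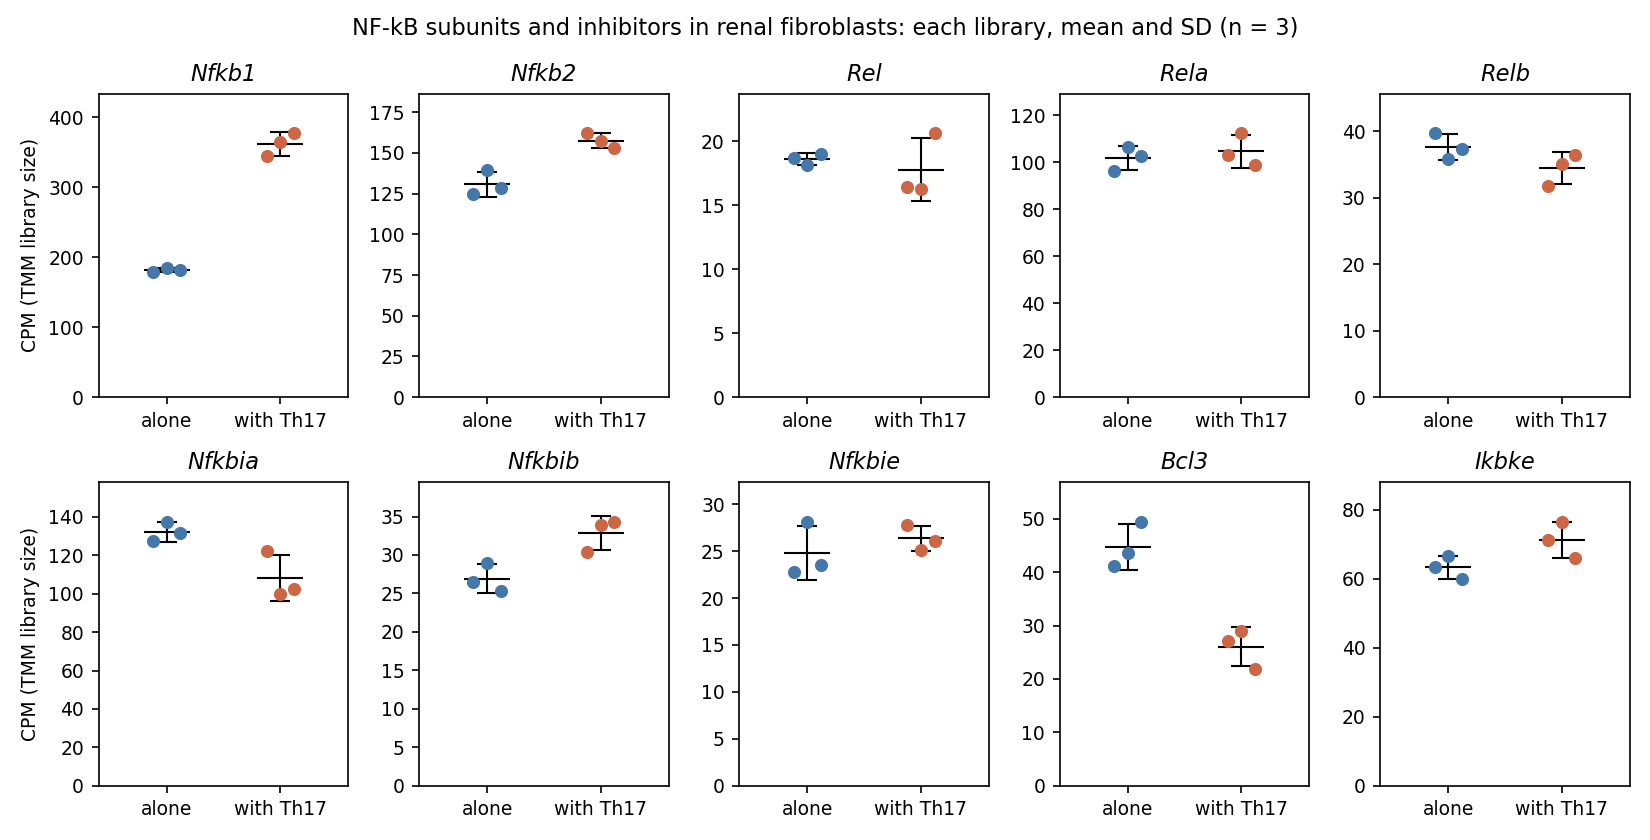
Transcript level of each NF-kB gene in CPM (TMM library sizes, vertical axes from 0) in the 3 libraries of lone fibroblasts (blue) and the 3 cocultured with Th17 cells (orange). Points are libraries, long bars the mean and short bars the SD. The groups of points are fully separated for Nfkb1, Nfkb2, Nfkbia, Nfkbib and Bcl3 and overlap for the other 5 genes.

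Nfkb1 encodes a precursor that is trimmed to a DNA-binding subunit without a transactivation domain, and the untrimmed protein itself acts as an IkB. It showed the largest difference of the 10 genes. Nfkb1 (ENSMUSG00000028163, chr3:135584655-135691547, minus strand, GRCm38, protein-coding) had 179, 184 and 182 CPM in lone fibroblasts and 344, 365 and 378 CPM with Th17 cells. Every cocultured library was far above every lone library, and the lone libraries lay close together. Means were 182 ± 2.89 CPM alone and 362 ± 16.7 CPM with Th17 cells (SD, n = 3 each), so Nfkb1 rose 1.99-fold (log2 fold change 0.996, SE 0.059, 95% interval 0.86 to 1.13, edgeR adjusted p = 1.85e-06). In bulk RNA, more cells that express a gene and more RNA per cell cannot be told apart, here and for all results below. Nfkb1 was called under each of 13 alternatives, and its log2 fold change stayed between 0.97 and 1.06. The fold passed 2 without lone replicate 2 (log2 fold change 1.01), without cocultured replicate 1 (1.03), with library size only (1.06) and when at least 10 counts were required in every library (1.001). A gene on the same strand within its bounds, Gm43430, had 1 to 6 counts in lone and 9 to 20 counts in cocultured libraries, beside 2298 for Nfkb1 in lone replicate 1 and 4959 in cocultured replicate 3.

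Nfkb2 encodes the precursor of the subunit that pairs with Relb in the noncanonical pathway, and like the Nfkb1 precursor it can act as an IkB. It rose by a much smaller margin. Nfkb2 (ENSMUSG00000025225, chr19:46304737-46312090, plus strand) had 125, 139 and 128 CPM in lone fibroblasts and 162, 157 and 153 CPM with Th17 cells. The groups did not overlap, though lone replicate 2 came close to the lowest cocultured library. Means were 131 ± 7.70 CPM alone and 158 ± 4.49 CPM with Th17 cells (SD, n = 3 each), a rise of 0.27 on the log2 scale (SE 0.065, 95% interval 0.12 to 0.42, edgeR adjusted p = 0.0107). The call was lost in 1 of the 13 alternatives, without lone replicate 3, where the log2 fold change was 0.25 (edgeR adjusted p = 0.0516). Psd, which overlaps Nfkb2 on the opposite strand, had 42 to 62 counts in lone and 3 to 5 counts in cocultured libraries, and use of strand in counting was not given in the sources used here.

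The start of Nfkb2 is shown because its transcript rose and its promoter window matches a known NF-kB motif. Promoter windows here are the 250 bases before and 50 bases after an annotated transcript start, from RefSeq on GRCm38.p6, written 5′ to 3′ on the strand of the gene. Both strands were searched for the kappaB consensus, a 10-base motif that NF-kB dimers can bind, and matches are in capitals. The Nfkb2 window at chr19:46304487-46304786, plus strand, had 3 matches, of which the pair that begin 39 and 38 bases before the start overlap each other and the last begins 11 bases before it.
Nfkb2: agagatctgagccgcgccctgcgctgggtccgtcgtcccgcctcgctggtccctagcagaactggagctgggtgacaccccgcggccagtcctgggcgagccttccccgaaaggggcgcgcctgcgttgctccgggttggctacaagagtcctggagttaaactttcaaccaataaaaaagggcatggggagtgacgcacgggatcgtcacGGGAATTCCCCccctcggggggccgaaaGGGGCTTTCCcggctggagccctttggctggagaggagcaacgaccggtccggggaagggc
A start downstream of this one, at chr19:46305445-46305744, had 2 further matches. Over all RefSeq windows together, 8.46% of 32851 windows held a match, so a match alone is a description of the sequence and not of binding.

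The remaining Rel-family subunits, which carry the transactivation domains of the dimers, did not pass the test. Rela, the subunit most often found in the canonical dimer (ENSMUSG00000024927, chr19:5637483-5648130, plus strand), had 96.1, 106 and 102 CPM in lone fibroblasts and 103, 112 and 98.7 CPM with Th17 cells. The groups overlapped (log2 fold change 0.04, 95% interval −0.12 to 0.21, edgeR adjusted p = 0.687), and without cocultured replicate 2 the value was −0.01. Rel, the subunit best known from lymphocytes (ENSMUSG00000020275, chr11:23736847-23770970, minus strand), had 18.7, 18.1 and 19.0 CPM in lone fibroblasts and 16.4, 16.3 and 20.6 CPM with Th17 cells. Cocultured replicate 3 was the highest of all 6 libraries and the other cocultured libraries were the lowest (log2 fold change −0.07, 95% interval −0.34 to 0.20, edgeR adjusted p = 0.702). Relb, the partner of the Nfkb2 product (ENSMUSG00000002983, chr7:19606217-19629438, minus strand), had 39.7, 35.7 and 37.3 CPM in lone fibroblasts and 31.8, 35.1 and 36.4 CPM with Th17 cells. Its groups overlapped as well (log2 fold change −0.13, 95% interval −0.32 to 0.07, edgeR adjusted p = 0.289). The 95% intervals of these genes leave room for changes of up to 0.34 on the log2 scale. None of the 3 genes was called under any of the 13 alternatives.

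The Rel promoter is the other subunit promoter with a match, and is shown as the 50 bases around it. The window, chr11:23770920-23771219 on the minus strand, held a pair of overlapping matches, and the one that begins 91 bases before the start is in capitals.
Rel: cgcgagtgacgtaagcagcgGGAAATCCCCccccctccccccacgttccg
The Rela window, chr19:5637291-5637590, held no match. Nfkb1 and Relb were not among the genes with a promoter window.

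Nfkbia encodes IkB alpha, the inhibitor that is degraded first on activation and resynthesised under NF-kB control. Its transcript was lower with Th17 cells. Nfkbia (ENSMUSG00000021025, chr12:55489411-55492647, minus strand) had 128, 138 and 131 CPM in lone fibroblasts and 122, 100 and 103 CPM with Th17 cells. Every cocultured library was below every lone library, but cocultured replicate 1 lay close to the lone group. Means were 132 ± 5.02 CPM alone and 108 ± 12.1 CPM with Th17 cells (SD, n = 3 each), a 1.22-fold decrease (log2 fold change −0.29, SE 0.085, 95% interval −0.48 to −0.10, edgeR adjusted p = 0.0254). The direction held under all 13 alternatives, and the call under 7 of them. It was lost without lone replicate 2 (log2 fold change −0.26, edgeR adjusted p = 0.0917), without lone replicate 3 (−0.30, 0.065), without cocultured replicate 2 (−0.23, 0.0843) and without cocultured replicate 3 (−0.25, 0.0605). It was also lost with library size only (edgeR adjusted p = 0.0633) and with limma on log2(FPKM + 1) (adjusted p = 0.0593).

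The Nfkbia promoter is shown because the gene is the standard example of an inhibitor induced by NF-kB. Its window, chr12:55492598-55492897 on the minus strand, held 1 match, which begins 29 bases before the start and also fits the stricter form of the motif, whose last letters are TTTCC on one strand.
Nfkbia: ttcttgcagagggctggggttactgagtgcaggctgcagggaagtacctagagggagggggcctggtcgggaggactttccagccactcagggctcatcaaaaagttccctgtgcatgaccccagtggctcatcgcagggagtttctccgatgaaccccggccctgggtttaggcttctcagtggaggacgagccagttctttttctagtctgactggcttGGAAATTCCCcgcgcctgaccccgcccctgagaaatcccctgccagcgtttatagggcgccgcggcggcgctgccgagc
The stricter form occurred in 0.807% of all windows.

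Nfkbib, the gene of IkB beta, rose slightly, opposite in sign to Nfkbia. Nfkbib (ENSMUSG00000030595, chr7:28758251-28767512, minus strand) had 26.5, 29.0 and 25.3 CPM in lone fibroblasts and 30.4, 33.9 and 34.3 CPM with Th17 cells. The groups did not overlap, with the highest lone and the lowest cocultured library close together. Means were 26.9 ± 1.90 CPM alone and 32.9 ± 2.18 CPM with Th17 cells (SD, n = 3 each), a rise of 0.29 on the log2 scale (SE 0.094, 95% interval 0.07 to 0.50, edgeR adjusted p = 0.0403). Of the 13 alternatives 6 kept the call. It was lost without lone replicate 1 (edgeR adjusted p = 0.116), lone replicate 3 (0.144), cocultured replicate 2 (0.0999) or cocultured replicate 3 (0.0799), with log2 fold changes of 0.27, 0.24, 0.27 and 0.25. It was also lost with DESeq2 (adjusted p = 0.0735) and with no filter on low counts (edgeR adjusted p = 0.054). Sirt2, which overlaps Nfkbib on the opposite strand, had 851 to 967 counts in lone and 799 to 1176 counts in cocultured libraries, more than Nfkbib in each.

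Nfkbie, the gene of IkB epsilon (ENSMUSG00000023947, chr17:45555716-45563169, plus strand), had 22.8, 28.1 and 23.5 CPM in lone fibroblasts and 27.8, 25.2 and 26.1 CPM with Th17 cells. Lone replicate 2 was the highest of all libraries and the groups overlapped (log2 fold change 0.09, 95% interval −0.16 to 0.33, edgeR adjusted p = 0.561). Its promoter window, chr17:45555450-45555749 on the plus strand, held 1 match that begins 106 bases before the start, shown in capitals with its surroundings for comparison with Nfkbia.
Nfkbie: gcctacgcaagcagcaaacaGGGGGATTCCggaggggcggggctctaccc
The Nfkbib window, chr7:28766595-28766894 on the minus strand, held none. The 3 cytoplasmic inhibitors therefore comprised 1 gene that rose, 1 that fell and 1 that did not pass the test.

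Bcl3 encodes a nuclear IkB protein that binds dimers of the Nfkb1 and Nfkb2 products on DNA and can turn them into activators or stabilise them as repressors. It was the NF-kB gene that fell furthest. Bcl3 (ENSMUSG00000053175, chr7:19808462-19822770, minus strand) had 41.2, 43.6 and 49.5 CPM in lone fibroblasts and 27.2, 29.0 and 21.9 CPM with Th17 cells. The highest cocultured library was well below the lowest lone library. Means were 44.7 ± 4.29 CPM alone and 26.0 ± 3.67 CPM with Th17 cells (SD, n = 3 each), a 1.72-fold decrease (log2 fold change −0.78, SE 0.121, 95% interval −1.05 to −0.51, edgeR adjusted p = 0.000905). Bcl3 was called under each of the 13 alternatives, where its log2 fold change stayed between −0.86 and −0.65. The genes annotated on the opposite strand of Bcl3 had at most 4 counts in any library.

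The Bcl3 promoter is shown because this gene fell and its window holds a symmetrical match just past its start. The window, chr7:19822706-19823005 on the minus strand, held 1 match, which begins at the base 3 positions into the transcript and reads as a match on both strands.
Bcl3: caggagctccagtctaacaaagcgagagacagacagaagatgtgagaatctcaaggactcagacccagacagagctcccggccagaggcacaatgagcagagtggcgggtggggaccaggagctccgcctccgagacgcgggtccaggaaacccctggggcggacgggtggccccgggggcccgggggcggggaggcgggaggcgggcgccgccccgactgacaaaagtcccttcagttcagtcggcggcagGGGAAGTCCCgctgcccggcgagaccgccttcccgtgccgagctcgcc
Of the 8 genes with a promoter window, 5 held a match (Nfkb2, Rel, Nfkbia, Nfkbie and Bcl3), beside 9.55% of 27025 symbols in the whole table, and 3 held the stricter form (Nfkb2, Rel and Nfkbia), beside 0.921%. Genes with a match were found among those that rose (Nfkb2), those that fell (Nfkbia and Bcl3) and those that did not pass the test (Rel and Nfkbie).

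Ikbke encodes a kinase related to the IKK catalytic subunits, known for its part in antiviral signalling together with Tbk1. Ikbke (ENSMUSG00000042349, chr1:131254343-131279606, minus strand) had 63.2, 66.7 and 59.8 CPM in lone fibroblasts and 71.1, 76.5 and 65.9 CPM with Th17 cells. Cocultured replicate 3 lay inside the range of the lone libraries and the other cocultured libraries lay above it (log2 fold change 0.17, 95% interval −0.01 to 0.35, edgeR adjusted p = 0.131). The gene was called in 1 of the 13 alternatives, with library size only (log2 fold change 0.23, edgeR adjusted p = 0.0413). Its promoter window, chr1:131279514-131279813 on the minus strand, held no match.

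**Figure D2:**
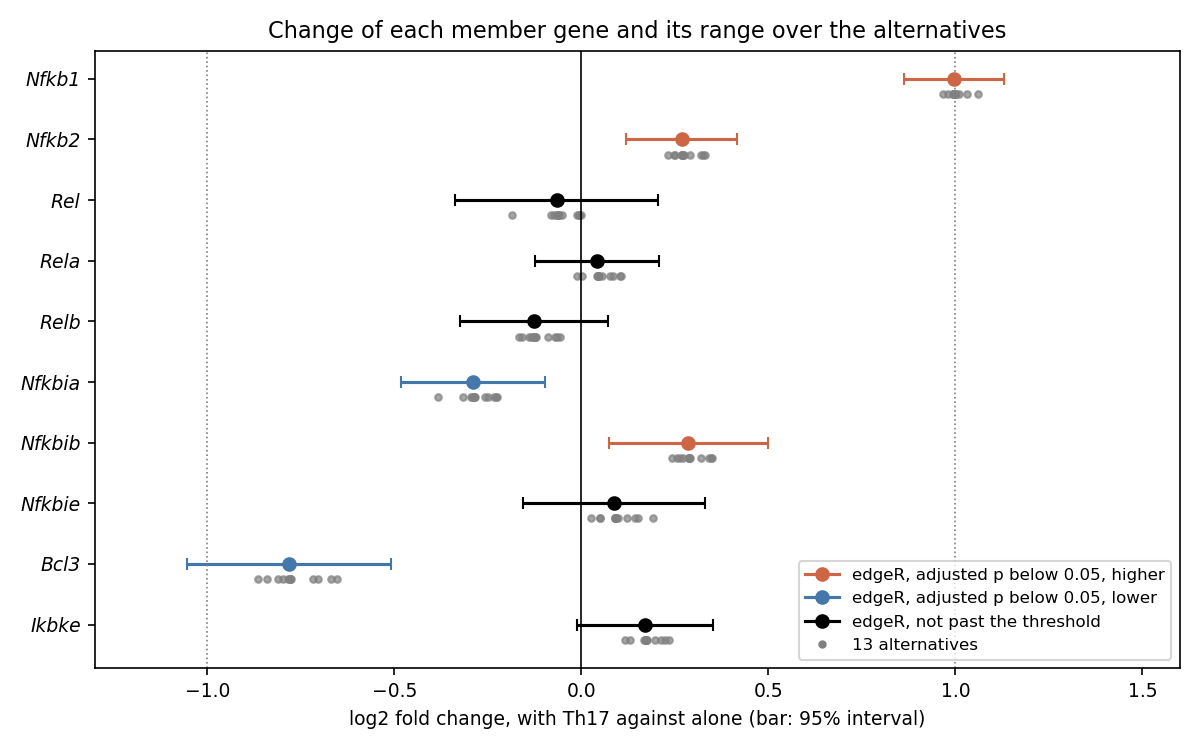
Log2 fold change of each NF-kB gene with Th17 cells against alone (horizontal axis, edgeR, with 95% intervals), coloured by whether the adjusted p was below 0.05, with the values under 13 alternatives as grey dots. Dotted lines mark a fold change of 2. Nfkb1 at 0.996 and Bcl3 at −0.78 lie furthest from 0 under every alternative. The 95% intervals of Rel, Rela, Relb, Nfkbie and Ikbke include 0, and only Rela changes sign among the alternatives.

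To compare the genes with each other, their levels were taken per length. The deposited FPKM (fragments per kilobase of gene, scaled to the library total) ranked Nfkbia first in lone fibroblasts at a mean of 81.9, followed by Nfkb2 at 37.8 and Rela at 36.6, whose ranges overlapped. Bcl3 at 12.04, Nfkb1 at 10.9, Nfkbie at 10.01 and Nfkbib at 8.86 FPKM formed a chain in which each overlapped the next. Relb at 6.64, Ikbke at 5.22 and Rel at 2.44 FPKM were each separate from their neighbours. With Th17 cells Nfkbia was still the highest at 70.1 FPKM, then came Nfkb2 at 47.5, Rela at 39.3 and Nfkb1 at 22.8 FPKM, each separate from the next. Nfkb1 had moved from the fifth place to the fourth. Nfkbib at 11.3 and Nfkbie at 11.1 FPKM overlapped, as did Bcl3 at 7.31, Relb at 6.36 and Ikbke at 6.14 FPKM in turn, and Rel was the lowest at 2.43 FPKM.

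This order depends on the gene lengths behind the FPKM. For Nfkb1 the deposited FPKM implies a length of 16227 bases, 3.94 times its longest annotated coding transcript of 4117 bases, and the ratio was 3.64 for Ikbke, 2.50 for Relb, 1.96 for Bcl3 and 1.44 for Nfkbib. It was 0.880 for Nfkb2 and at least 0.995 for the other 4 genes. Divided instead by the longest coding transcript, a scale added after the data had been seen, Nfkb1 ranked second in lone fibroblasts at 44.1 CPM per kilobase, behind Nfkbia at 83.8 and ahead of Rela at 37.4 and Nfkb2 at 34.0, whose ranges overlapped. With Th17 cells Nfkb1 ranked first at 87.99 ± 4.05 CPM per kilobase, above Nfkbia at 68.6 ± 7.64 (SD, n = 3 each), and the ranges did not overlap. The count divided here was the deposited one for the whole gene. Whether it includes fragments from outside the coding transcript, which would overstate this level, was not tested. Rel was the lowest on both scales, at 2.49 CPM per kilobase in lone and 2.38 in cocultured fibroblasts.

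The make-up of the Rel-family pool was examined as the percentage of summed FPKM held by each of the 5 subunits within a library. Nfkb1 held 11.8%, 11.3% and 11.7% in lone libraries and 18.5%, 18.9% and 20.4% in cocultured libraries, with no overlap. The exact two-sided permutation test gave p = 0.1 (adjusted p = 0.167 over the 5 subunits), which is the smallest p that 3 libraries against 3 allow, so no share can pass a threshold of 0.05. The mean share of Nfkb1 was 11.6 ± 0.282% in lone and 19.2 ± 0.997% in cocultured fibroblasts (SD, n = 3 each). The mean share of Rela was 38.7% in lone and 33.2% in cocultured fibroblasts and that of Relb 7.06% and 5.37%, both without overlap (exact permutation p = 0.1). Shares are parts of one sum, so a rise in Nfkb1 lowers the shares of subunits whose own levels stay the same. The levels of Rela and Relb did not pass the test (log2 fold changes 0.04 and −0.13), so their smaller shares are not separate results. Nfkb2 held 40.0% and 40.1% (exact permutation p = 0.9) and Rel 2.59% and 2.06% (exact permutation p = 0.2), with overlap. Per kilobase of coding transcript the mean share of Nfkb1 was 32.7% in lone and 47.4% in cocultured fibroblasts, and that of Nfkb2 was 25.2% and 22.1%.

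Inhibitor transcripts were then set against subunit transcripts. The summed FPKM of Nfkbia, Nfkbib and Nfkbie divided by that of the 5 subunits was 1.07, 1.08 and 1.06 in lone libraries and 0.862, 0.717 and 0.765 in cocultured libraries. All 3 cocultured libraries were below all 3 lone libraries, with means of 1.07 ± 0.012 and 0.781 ± 0.074 (SD, n = 3 each; exact two-sided permutation p = 0.1, the smallest possible). Nfkb1 and Nfkb2, whose precursors can also act as IkB, were counted only as subunits, and the nuclear IkB gene Bcl3 was left out. The ratio depends on that classing, and no other was examined. The denominator differed more than the numerator. Within it mean FPKM was 10.9 in lone and 22.8 in cocultured fibroblasts for Nfkb1, and 37.8 and 47.5 for Nfkb2. Summed subunit FPKM was 94.4 ± 3.84 in lone and 118 ± 1.81 in cocultured fibroblasts without overlap, and summed inhibitor FPKM was 101 ± 4.80 and 92.5 ± 7.76 with overlap (exact permutation p = 0.3). Per kilobase of coding transcript the ratio was 0.792 in lone and 0.515 in cocultured fibroblasts.

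**Figure D3:**
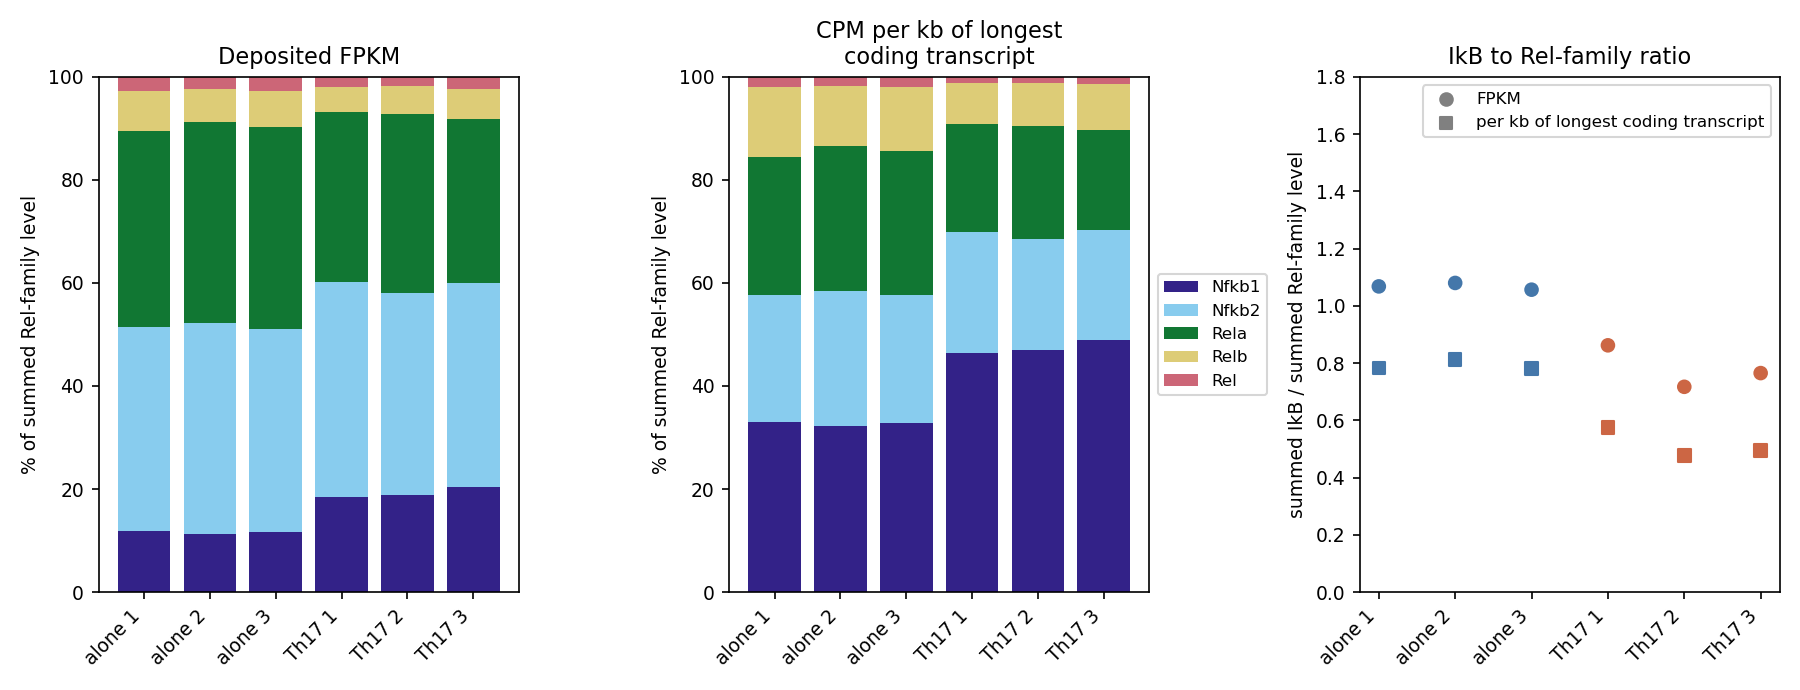
Left and centre: percentage of the summed Rel-family level held by each subunit in each of the 6 libraries, from deposited FPKM and from CPM per kilobase of the longest coding transcript. Right: summed level of Nfkbia, Nfkbib and Nfkbie divided by that of the 5 subunits in each library (blue, alone; orange, with Th17 cells) on both scales. The Nfkb1 share is higher and the ratio lower in all 3 cocultured libraries on either scale, although the height of the Nfkb1 share differs between scales.

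The rest of the pathway was described from 7 lists that together hold 128 genes and contain none of the 10 NF-kB genes. The lists were written with earlier results of these data known, so no set test was made. Levels are means ± SD over 3 libraries a group. In the lists of kinases, receptors, adaptors and other inhibitors, 4 of 16, 6 of 15, 7 of 21 and 5 of 16 tested genes were called, near or below the 37.1% called over all genes tested, so these counts are not read as particular to the lists. The first holds IKK subunits and kinases upstream of them. Of its 16 genes, all tested, 2 rose and 2 fell, and the median log2 fold change was −0.01. Without lone replicate 1, 2 or 3 or cocultured replicate 2, 1 fell. Chuk, the catalytic IKK alpha subunit, rose from 102 ± 4.94 to 157 ± 12.1 CPM (log2 fold change 0.62, SE 0.075, edgeR adjusted p = 0.000218). Ikbkg, the regulatory subunit NEMO, rose from 23.4 ± 1.66 to 45.4 ± 9.43 CPM (0.96, SE 0.144, edgeR adjusted p = 0.000795). Cocultured libraries of Ikbkg spread from 37.7 to 55.9 CPM, all above the 21.7 to 25.0 CPM of lone libraries. Ikbkb, the catalytic IKK beta subunit, fell from 53.1 ± 1.98 to 43.3 ± 3.96 CPM (−0.29, SE 0.087, edgeR adjusted p = 0.0264), so the catalytic subunits had opposite signs. That call was kept in 6 of 13 alternatives and lost without any 1 of the lone replicates 1, 2 and 3 or the cocultured replicates 1 and 2, with log2 fold changes from −0.32 to −0.22. Tbk1, the kinase related to Ikbke, fell from 72.9 ± 3.02 to 50.3 ± 1.35 CPM (−0.53, SE 0.070, edgeR adjusted p = 0.000328). Map3k14, the NIK kinase of the noncanonical pathway, was low at 2.74 to 6.88 CPM and did not pass the test (−0.37, 95% interval −0.99 to 0.25, edgeR adjusted p = 0.325).

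Among 15 receptors that signal to NF-kB, all tested, 4 rose and 2 fell, with a median of 0.01, beside 17.1% higher and 20.0% lower over all genes tested. Without lone replicate 1, 2 or 3 or cocultured replicate 2, 3 rose, and without cocultured replicate 3, 3 fell. Il1rl1, the receptor for interleukin-33, rose from 12.4 ± 0.437 to 109 ± 17.0 CPM, 8.76-fold (log2 fold change 3.13, SE 0.123, edgeR adjusted p = 1.54e-07). Il1rap, the shared accessory chain, rose by 0.91 (SE 0.062, edgeR adjusted p = 4.95e-06) and Il1r1, the signalling receptor for interleukin-1, by 0.70 (SE 0.105, edgeR adjusted p = 0.000762). The toll-like receptors Tlr3 and Tlr2, sensors of double-stranded RNA and of bacterial lipoproteins, fell by 2.33 (SE 0.068, edgeR adjusted p = 4.06e-08) and 0.62 (SE 0.083, edgeR adjusted p = 0.000407). The TNF receptor Tnfrsf1a had a log2 fold change of −0.09 (95% interval −0.27 to 0.08, edgeR adjusted p = 0.38), the lymphotoxin receptor Ltbr 0.01 (−0.14 to 0.15, 0.946) and the interleukin-17 receptor subunit Il17ra −0.08 (−0.29 to 0.12, 0.517). These receptors did not pass the test in any of 13 alternatives, and the sign of Ltbr turned without lone replicate 1 (−0.02), lone replicate 2 (−0.01) or cocultured replicate 2 (−0.02).

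Of 22 adaptors and ubiquitin enzymes 21 were tested, and 1 rose and 6 fell, with a median of 0.00. Without lone replicate 3 or without cocultured replicate 1, 2 rose, and without cocultured replicate 3, 3 rose. Myd88, the adaptor of interleukin-1 and toll-like receptors, fell from 59.3 ± 3.22 to 29.5 ± 1.64 CPM (log2 fold change −1.01, SE 0.082, edgeR adjusted p = 1.52e-05). Traf1 was scarce and passed the filter on low counts through the lone libraries alone, at 18, 19 and 26 counts in lone and 8, 4 and 6 counts in cocultured libraries (−1.87, SE 0.378, edgeR adjusted p = 0.00422), a call lost with limma on log2(FPKM + 1) (adjusted p = 0.0612). Traf3, which holds NIK at a low level, rose from 22.8 ± 2.12 to 30.5 ± 2.10 CPM (0.41, SE 0.103, edgeR adjusted p = 0.0117), whereas Traf2, its partner, fell by 0.33 (SE 0.080, edgeR adjusted p = 0.0104). Birc3, a ubiquitin ligase of the same complex, had 36.1 ± 0.260 CPM in lone and 41.0 ± 3.03 CPM in cocultured fibroblasts (0.18, edgeR adjusted p = 0.114). It was called without cocultured replicate 3 (0.24, edgeR adjusted p = 0.0397) and with library size only (0.25, edgeR adjusted p = 0.0389).

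Other inhibitors and modulators of NF-kB made up a list of 16 genes, all tested, of which 4 rose and 1 fell, with a median of 0.14. Without lone replicate 3, cocultured replicate 1 or cocultured replicate 2, 2 fell. Without lone replicate 1, 2 or 3 or cocultured replicate 2, 3 rose, and without cocultured replicate 3, 5 rose. Zc3h12a, an RNase that degrades inflammatory transcripts, rose from 121 ± 2.16 to 262 ± 6.05 CPM, 2.16-fold (log2 fold change 1.11, SE 0.056, edgeR adjusted p = 6.78e-07). Cyld, a deubiquitinase, rose by 0.44 (SE 0.077, edgeR adjusted p = 0.00186) and N4bp1 fell by 0.45 (SE 0.079, edgeR adjusted p = 0.00199). Of the atypical nuclear IkB genes, which are relatives of Bcl3, Nfkbiz had 335, 338 and 345 CPM in lone and 273, 324 and 367 CPM in cocultured libraries. These overlapped (−0.08, 95% interval −0.30 to 0.14, edgeR adjusted p = 0.556), and without cocultured replicate 1 the value was 0.03. Nfkbid rose from 1.61 ± 0.289 to 2.90 ± 0.833 CPM (0.85, SE 0.293, edgeR adjusted p = 0.0487). With 17 to 24 and 27 to 50 counts a library, that call was kept in 5 of 13 alternatives and was lost without any 1 library other than cocultured replicate 3, with log2 fold changes from 0.62 to 0.99. Tnfaip3, the deubiquitinase A20, was uneven among lone libraries, at 227, 111 and 191 CPM beside 181, 176 and 195 CPM with Th17 cells (0.07, 95% interval −0.41 to 0.54, edgeR adjusted p = 0.838). Without lone replicate 2 its log2 fold change was −0.18.

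Known target genes divided in both directions. Of 40 canonical targets 38 were tested, and 21 rose and 15 fell, 12 and 7 of them by more than 2-fold, with a median of 0.41. Over all genes tested 17.1% rose and 20.0% fell, 3.87% and 7.78% by more than 2-fold, and the median was 0.00. Because the list was written with earlier results known, this contrast describes the listed genes and is not evidence about NF-kB targets in general. The canonical targets that fell include Il1b, Tnf and Ccl20, which passed the filter on low counts through the lone libraries alone. They had under 10 counts in each cocultured library. The 15 that fell include all of them, and the 7 past 2-fold include Il1b and Tnf, so these counts are not read as support. The neutrophil chemokine genes Cxcl3 and Cxcl1 rose, Cxcl3 from 10.1 ± 1.59 to 95.6 ± 11.5 CPM (log2 fold change 3.24, SE 0.135, edgeR adjusted p = 2.15e-07), while Cxcl1 had a log2 fold change of 1.16 (edgeR adjusted p = 0.000305). The growth factor gene Csf2 rose from 5.35 ± 0.929 to 25.1 ± 8.80 CPM (2.23, SE 0.260, edgeR adjusted p = 0.00016). Il6 and Ccl2, already at 846 ± 86.1 and 1855 ± 34.3 CPM in lone fibroblasts, rose by 0.37 (SE 0.082, edgeR adjusted p = 0.00694) and 0.24 (SE 0.049, edgeR adjusted p = 0.00487). The genes of the adhesion molecules Vcam1 and Icam1 fell, Vcam1 from 1008 ± 17.4 to 125 ± 4.46 CPM, 8.05-fold (−3.01, SE 0.058, edgeR adjusted p = 8.56e-09), and Icam1 from 28.3 ± 3.58 to 2.06 ± 0.416 CPM (−3.77, SE 0.173, edgeR adjusted p = 3.78e-07). Il1b had 70, 65 and 68 counts in lone and 4, 0 and 5 counts in cocultured libraries, and Tnf had 41, 34 and 30 against 1, 2 and 4 counts. Macrophages are a common source of the Il1b and Tnf transcripts, and the macrophage markers fell between the same groups, from 51.8 to 55.7 CPM in sum to 8.91 to 10.8 CPM. The part of those markers' cells in these falls was not tested.

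Targets that NF-kB shares with interferon signalling went one way. Of 11 genes 10 were tested and all 10 fell, 8 by more than 2-fold, with a median of −1.98. Over all genes tested 20.0% fell, 7.78% by more than 2-fold, and the median was 0.00. As this list and the noncanonical one were also written with earlier results known, these contrasts are descriptions only. Cxcl10 fell from 934 ± 14.3 to 42.2 ± 4.01 CPM (log2 fold change −4.47, edgeR adjusted p = 8.56e-09). Cxcl9 had 152, 186 and 167 counts in lone and 6, 1 and 1 counts in cocultured libraries. Cxcl9 passed the filter on low counts through the lone libraries alone, and with at least 10 counts required in every library 9 of the genes fell. The smallest falls were those of B2m, by 0.55 (SE 0.101, edgeR adjusted p = 0.00227), and H2-D1, by 0.51 (SE 0.066, edgeR adjusted p = 0.000326), both genes of the class I antigen-presenting complex. Beside 7.78% of all genes tested, all 3 of the 8 noncanonical targets that were tested fell by more than 2-fold. These were Cxcl12, from 180 ± 0.393 to 81.9 ± 0.532 CPM (−1.13, SE 0.056, edgeR adjusted p = 5.76e-07), Enpp2 (−1.41, SE 0.227, edgeR adjusted p = 0.00115) and Tnfsf13b, which encodes the B cell survival factor BAFF (−1.18, SE 0.205, edgeR adjusted p = 0.00184). Nfkb2 rose and Relb did not pass the test in the same libraries.

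**Figure D4:**
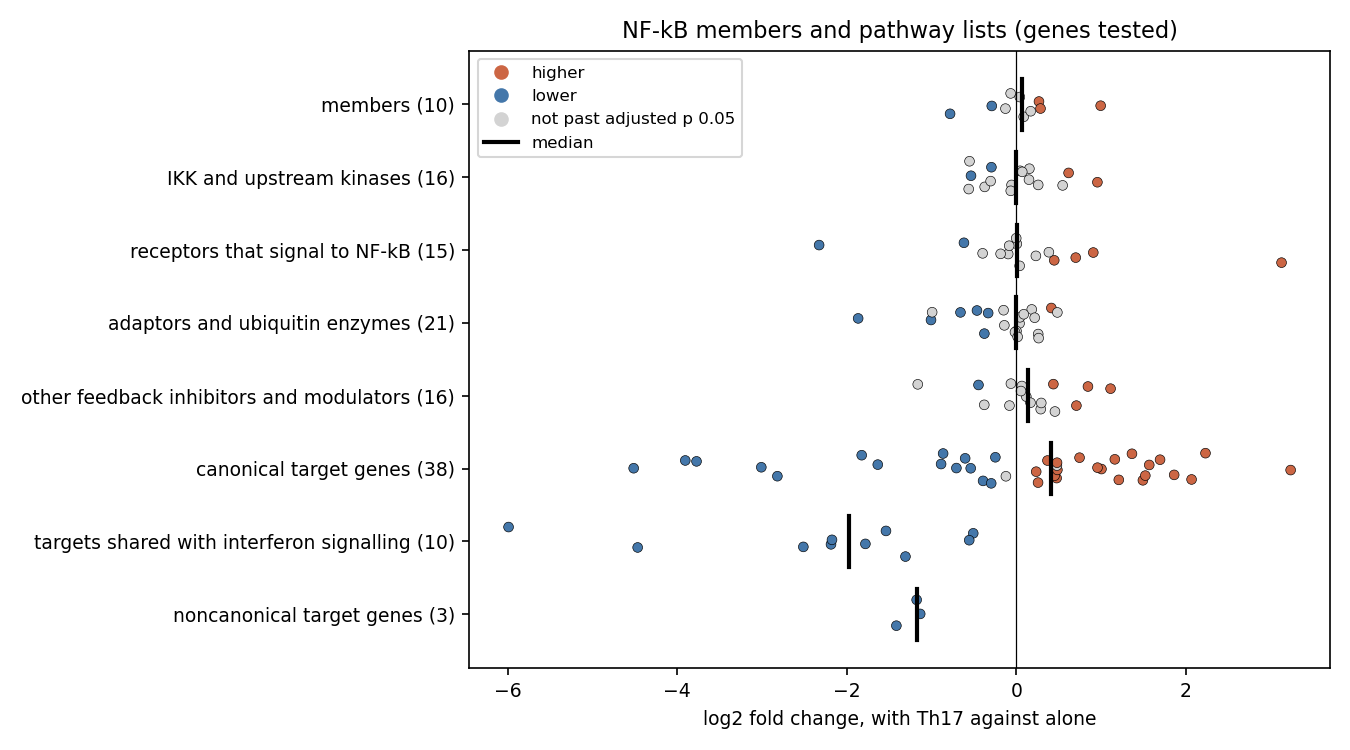
Log2 fold change with Th17 cells against alone (horizontal axis) for each tested gene of the 10 NF-kB genes and the 7 pathway lists, with the number tested in brackets. Orange points rose, blue points fell and grey points did not pass an adjusted p of 0.05, and black bars are medians. Canonical targets spread from −4.51 (Il1b) to 3.24 (Cxcl3), while all 10 interferon-shared and all 3 noncanonical targets lie below 0. Il1b, Tnf, Ccl20, Cxcl9 and Traf1 passed the filter on low counts through the lone libraries alone.

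Over all symbols with a promoter window 9.55% held a kappaB match. Among canonical targets with a window, a match was present in 9 of 14 that rose (Cxcl1, Cxcl2, Cxcl3, Il6, Lif, Csf1, Sod2, Bcl2l1 and Ier3). It was present in 4 of 13 that fell (Ccl20, Tnfaip2, Ptx3 and Steap4), of which Ccl20 had passed the filter on low counts through the lone libraries alone. Of the interferon-shared targets that fell, 5 of 9 held one (Cxcl10, Irf1, H2-K1, H2-D1 and B2m). Matches were thus found on both sides, and no test was made of the difference.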

How the data were processed

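RNA of primary renal fibroblasts was sequenced by the authors with a VAHTS kit on an Illumina NovaSeq. Per the submitters' processing notes and the study's methods, reads were filtered with Seqtk, aligned to mm10 with HISAT2 2.0.4 and counted per gene with StringTie 1.3.3b. The deposited table holds a fragment count for each gene and library, and beside it the authors deposited FPKM, scaled to gene length and library total. The strand setting, the annotation release and the source of the gene lengths were not given in the sources used here. Groups of 3 libraries each were read from the sample titles. All 34745 rows named a gene.

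The 10 genes, the pathway lists and the tests were chosen with earlier results of these data known. The counts were tested with edgeR 4.0.16 in R 4.3.3 (filterByExpr, minimum count 10, TMM, glmQLFit and glmQLFTest, Benjamini-Hochberg adjustment over 13088 genes). The thresholds were an adjusted p of 0.05 and, as in the study's methods, a fold change of 2. The common dispersion was 0.0136. Levels are CPM with TMM library sizes. For the 59 symbols listed more than once, the most abundant entry was taken. Floors cover counting error only, since fragments were counted without molecular identifiers. Named beside the 10 genes were 20 pathway genes set by name and, in each list, the 2 genes with the highest and the 2 with the lowest log2 fold change past an adjusted p of 0.05. Shares and ratios were tested with exact two-sided permutation tests in scipy 1.17.1. The alternatives were relative log expression factors, library size only, no low-count filter, at least 10 counts in every library, DESeq2 1.42.0, limma 3.58.1 on log2(FPKM + 1), a replicate block and leaving out each library. Scaling by the longest coding transcript was added after the data had been seen. Promoter windows came from RefSeq on GRCm38.p6 and gene positions from the deposited table, with overlaps from the GENCODE annotation of GRCm38. Scripts were tested on simulated data. Figures were drawn with matplotlib 3.10.9.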

Additional observations from a re-analysis of the deposited data

How the results depend on the processing

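Under the 13 alternatives Nfkb1 and Bcl3 kept their direction and call, and Nfkb2, Nfkbia and Nfkbib kept their direction. The number of the 10 genes called higher was 3 and ranged from 1 to 3 when each library was left out, and the number called lower was 2, ranged from 1 to 2, and was 1 with limma on log2(FPKM + 1) and 1 when only library size was scaled. Of the called genes 60.0% were higher, beside 80.0% with library size only and 75.0% with limma. Over all genes these shares were 46.2%, 56.1% and 55.8%. With a fold change above 2 also required, 1 gene, Nfkb1, was called higher with library size only and 1 with at least 10 counts in every library, and 0 to 1 when each library was left out. Over all genes the calls past that fold were 506 higher and 1018 lower, and 224 and 402 with limma, whose pseudocount shrinks low values. Log2 fold changes of genes that did not pass the test turned sign for Rela (−0.011 without cocultured replicate 2), Ltbr (negative without lone replicate 1, lone replicate 2 or cocultured replicate 2), Nfkbiz (0.026 without cocultured replicate 1) and Tnfaip3 (−0.18 without lone replicate 2). Their ranges when each library was left out were −0.011 to 0.084, −0.021 to 0.040, −0.18 to 0.026 and −0.18 to 0.29. With library size only the list medians were 0.058 for kinases, 0.065 for adaptors, 0.21 for other inhibitors, 0.47 for canonical and −1.11 for noncanonical targets. With limma they were 0.049, 0.047 and 0.20 for the first 3 of these, −1.38 for interferon-shared and −0.85 for noncanonical targets. With no filter on low counts the canonical median was 0.31 and the interferon-shared median −1.78, and with at least 10 counts in every library 0.48 and −1.77. Leaving out each library gave medians from −0.028 to 0.058 for kinases, −0.03 to 0.10 for receptors, −0.049 to 0.024 for adaptors, 0.13 to 0.23 for other inhibitors, 0.32 to 0.41 for canonical, −2.04 to −1.87 for interferon-shared and −1.31 to −1.13 for noncanonical targets. Of the other inhibitors 7 were higher with library size only and 7 with limma, and 3 adaptors were higher with library size only. With counts in place of FPKM the differences between groups in share were 14.9 percentage points for Nfkb1, −4.50 for Nfkb2, −1.34 for Rel and −2.92 for Relb, and −0.143 for the ratio. Per kilobase of the longest coding transcript they were 14.8 for Nfkb1, −3.07 for Nfkb2 and −4.22 for Relb. The causes were not tested. With the stricter motif 3 promoters held a match in place of 5. Same-numbered libraries did not deviate together (correlations of 0.016, −0.026 and −0.0036), so the numbers were not read as pairs. With a replicate block 2 of the 10 genes were higher and 2 lower, Nfkbib being lost at a log2 fold change of 0.29 (edgeR adjusted p = 0.0606), and 4 kinases were lower in place of 2.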
